A study of Mus musculus with 6 samples.

Results

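The miR-34 family and 7 genes of the p53 pathway were followed in the Achilles tendon of mice with and without a Scx-Cre-driven deletion of floxed Dicer. The 10 members were taken by name, namely the hairpins Mir34a, Mir34b and Mir34c among 2262 features of the small RNA-seq count table, and Trp53, Mdm2, Cdkn1a, Ccng1, Ccng2, Bax and Sesn2 among 53726 features of the RNA-seq count table. All 10 were found. The tendons came from mice 4 weeks old of 3 genotypes, which are called Control (Dicer f/f, floxed alleles and no Cre), ScxHt (ScxCre/+ Knock In with Dicer +/+) and Dicer cKO (ScxCre/+ Knock In with Dicer f/f). Each genotype was 1 mouse, with 1 RNA-seq and 1 small RNA-seq library from the same numbered sample. No comparison therefore had a replicate, no p-value was computed, and each ratio below compares single libraries with a 95% exact counting interval that covers counting error only.

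The Cre recombinase is knocked in at the Scx locus, so the ScxHt and Dicer cKO tendons share the Scx-Cre allele, and cells of the tendon that never express Scx keep Dicer. Dicer1 had 1919 reads in Control, 2025 in ScxHt and 1621 in Dicer cKO, a Dicer cKO/Control ratio of 0.877 (0.821 to 0.938). Most Dicer1 reads were thus still present in the Dicer cKO tendon. Reads were summed over the whole gene, so any from outside the deleted part would still be counted. By real-time PCR on replicate mice, the study reported significantly less Dicer in Dicer cKO than in Control tendon. It names inefficient or mosaic recombination as a possible limit of the model. RNA-seq libraries held 14936241 to 16218733 counts and small RNA-seq libraries 8435829 to 10986541. All 6 tendon markers (Tnmd, Scx, Mkx, Col1a1, Fmod, Thbs4) had reads in every library, and they summed to 87645 CPM (counts scaled to the same library total) in Control, 71238 in ScxHt and 49304 in Dicer cKO. Col1a1 made up most of this sum, and in ScxHt/Control 4 of the 6 had a ratio above 1. The tissue also held muscle, nerve and macrophage transcripts in unequal amounts, which are given with the results they move with. In such bulk RNA, fewer cells of a type and less RNA per cell cannot be told apart.

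p53, encoded by Trp53, is a transcription factor that is held low by the ubiquitin ligase Mdm2 and accumulates after DNA damage and other stress. Its mRNA targets include Cdkn1a, which encodes the cell cycle inhibitor p21, Bax, a pore-forming protein of the mitochondrial death pathway, and Mdm2 itself, which closes a feedback loop. The miR-34 genes are known as direct p53 targets that encode microRNAs acting on cell cycle and survival mRNAs. Dicer cuts the precursor hairpin of such microRNAs into the mature duplex, and the 5p strand is the main mature form of miR-34a.

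The mature 5p strands are shown first because they fix which mRNAs the family can pair with. Capitals mark the seed, bases 2 to 8, which RefSeq sequences of build GRCm38.p6 gave as GGCAGUG for miR-34a-5p, miR-34b-5p and the related miR-449a-5p. miR-34c-5p is known to belong to the same seed family.
miR-34a-5p: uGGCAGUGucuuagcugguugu
miR-34b-5p: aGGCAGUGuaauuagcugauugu
miR-449a-5p: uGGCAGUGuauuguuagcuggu
From base 2, miR-34a-5p and miR-34b-5p ran identical to base 9, and aligned without gaps they shared 11 of 22 bases. The 3p strands fell into other groups. Those of miR-34b and miR-34c had 1 seed in common, AUCACUA, which differed from the miR-34a-3p seed AUCAGCA.
miR-34a-3p: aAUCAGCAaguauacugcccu
miR-34b-3p: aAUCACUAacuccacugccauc
miR-34c-3p: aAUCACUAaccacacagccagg
The deposited counts are per hairpin, so reads of the 5p and 3p strands were not separated.

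Mir34a lies at chr4:150068454-150068555 on the plus strand of GRCm38 (GENCODE vM21), inside an exon of the uncharacterized transcript Gm37795. Mir34b, at chr9:51103562-51103645, and Mir34c, at chr9:51103034-51103110, are neighbours on the minus strand with 451 bases between them, and both lie in an intron of Btg4, a gene on the opposite strand that had 0 reads in all 3 RNA-seq libraries.

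Mir34a was the main family member in each tendon library, and its level and that of the Mir34b and Mir34c pair went in opposite directions between Control and Dicer cKO. Mir34a had 753 reads in Control, 722 in ScxHt and 953 in Dicer cKO. Per length of the hairpin its level was 672 RPKM (reads scaled by feature length and library total) in Control, 839 in ScxHt and 1108 in Dicer cKO, and it ranked between 134 and 149 among the 579 to 634 small RNA features with reads. Mir34c had 108, 81 and 54 reads in the same order, or 128, 125 and 83.1 RPKM. Mir34b was lowest, with 29, 18 and 6 reads, or 31.4, 25.4 and 8.47 RPKM. The counting intervals of the 3 hairpins did not overlap within any library, so the order Mir34a, Mir34c, Mir34b held in all 3.

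**Figure D1:**
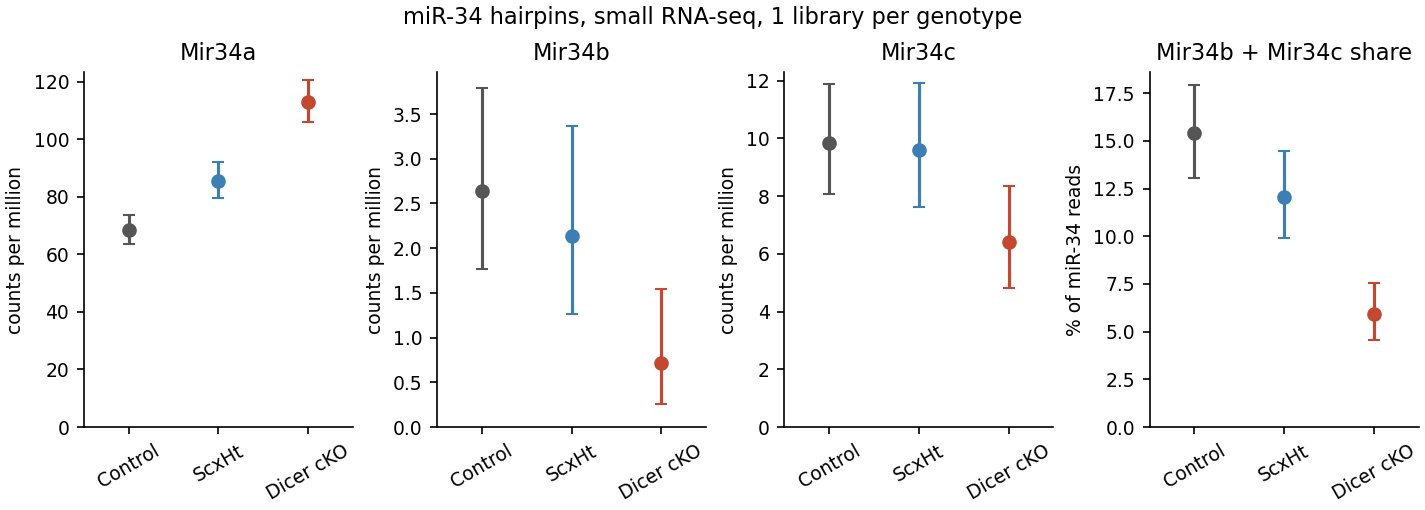
Small RNA-seq level of each miR-34 hairpin in CPM (own linear axis in each panel), and the percentage of all miR-34 reads that came from Mir34b and Mir34c together, by genotype. Points are single libraries and bars are 95% exact counting intervals. Mir34a is highest in Dicer cKO, where Mir34b and Mir34c are lowest, and the combined share goes from 15.4% in Control to 5.92% in Dicer cKO.

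For ratios, each pair of libraries was scaled by its own size factors, and the mean of the normalized counts (baseMean) had to exceed 15 in small RNA-seq and 50 in RNA-seq. A ratio above 1.67 was called higher and one below 0.60 lower. In Dicer cKO/Control, 2 of the 3 hairpins were lower and none was higher. Over all 334 small RNA features analysed in this comparison, 4.19% were lower and 8.38% higher. The 2 lower hairpins, Mir34b and Mir34c, are the neighbours 451 bases apart, so they may not count as independent members. Mir34b had a ratio of 0.237 (0.0805 to 0.581) at a baseMean of 16.8, near the minimum of 15. With these size factors its whole interval lay below the limit, though the upper bound was close to it. The study picked miR-34b from these same libraries as one of its lower microRNAs, so this ratio is not independent evidence of direction. Mir34c had a ratio of 0.573 (0.405 to 0.802), so its interval reached across the limit but not across 1. Mir34a stayed inside the limits at 1.45 (1.32 to 1.60), with an interval above 1.

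Against Control, the ScxHt library gave intervals that reached 1. Mir34a had a ScxHt/Control ratio of 1.08 (0.974 to 1.20), Mir34c 0.845 (0.626 to 1.14) and Mir34b 0.699 (0.366 to 1.30). None of the 3 passed a limit, against 3.01% higher and 6.93% lower among 332 features. In Dicer cKO/ScxHt the ratio was 1.32 (1.20 to 1.46) for Mir34a and 0.667 (0.463 to 0.952) for Mir34c. These 2 analysed hairpins were inside the limits, and the background was 11.2% higher and 2.17% lower among 322 features. Mir34b, at 0.333 (0.108 to 0.877), had a baseMean of 12 there and was not analysed. The 3 comparisons share libraries, so they are not independent of each other.

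The composition of the family within a library needs no scaling between libraries. Mir34b and Mir34c together gave 137 of 890 miR-34 reads in Control, 99 of 821 in ScxHt and 60 of 1013 in Dicer cKO. These were shares of 15.4% (13.1 to 17.9), 12.1% (9.91 to 14.5) and 5.92% (4.55 to 7.56). The Dicer cKO interval lay apart from the other two, which overlapped each other. Expressed as a ratio of ratios, the Dicer cKO/Control ratio of Mir34a was 2.89 times (2.08 to 4.04) that of the pair. The same quantity was 1.33 (0.996 to 1.77) when ScxHt was set against Control. It was 2.18 (1.54 to 3.10) when Dicer cKO was set against ScxHt. Within the pair, Mir34b gave 21.2% of reads in Control (14.7 to 29.0), 18.2% in ScxHt (11.1 to 27.2) and 10% in Dicer cKO (3.76 to 20.5), and these intervals overlapped. A different ratio for Mir34b and Mir34c was thus not detectable at this depth, with a ratio of ratios of 2.42 (0.908 to 7.53) in Dicer cKO/Control.

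Relatives with the same seed added little. Mir449a had 8 reads in Control, 5 in ScxHt and 10 in Dicer cKO, and Mir449b and Mir449c had 0 in each. The Mir34b and Mir34c genes and the miR-449 genes are best known from multiciliated cells. The 6 markers of that cell type summed to 2.47, 3.11 and 2.14 CPM in Control, ScxHt and Dicer cKO. Most of these reads were from Foxj1 (24, 16 and 15 reads) and Rsph1 (10, 29 and 9). Mcidas had 0 reads in every library and Ccno 0, 0 and 2. None of the 6 reached the minimum baseMean in any comparison. Keratinocyte markers summed to under 1 CPM in each library, with Krt5 and Krt15 at 0. In the RNA-seq libraries the Mir34a hairpin had 0, 0 and 2 reads, and Mir34b and Mir34c had 0.

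Among other microRNAs known to respond to p53 (Mir192, Mir194-1, Mir194-2, Mir215, Mir143, Mir145a, Mir107, Mir200c, Mir15a, Mir16-1), 9 of 10 were analysed and none passed a limit in any comparison. Some of them give the same mature strand as another locus, so their reads may be shared. Their ratios ran from 0.732 to 1.53 in Dicer cKO/Control, from 0.863 to 1.16 against Control in ScxHt, and from 0.833 to 1.29 between Dicer cKO and ScxHt.

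The 7 mRNAs of the pathway covered a wide range of levels. Ccng1, which encodes cyclin G1, stood highest in every library at 51.2 RPKM in Control, 42.7 in ScxHt and 71.0 in Dicer cKO. Mdm2 came next at 10.005, 11.1 and 11.3 RPKM, and Cdkn1a followed at 6.25, 7.65 and 4.66 RPKM. Below them, Trp53 (2.92), Bax (2.83) and Ccng2 (2.31) were neighbours in Control whose counting intervals overlapped, and Sesn2 was lowest there at 1.03 RPKM. In ScxHt, Sesn2 reached 2.83 RPKM and stood above Ccng2 (2.37) and Bax (2.33), though these neighbours overlapped. In Dicer cKO, Ccng2 at 3.93 RPKM overlapped Cdkn1a and stood above Bax (2.48) and Trp53 (2.27). These orders are of levels per annotated length within a library. All 7 are protein-coding genes. Exons of Bax overlap those of Gm45808 on the same strand, and exons of Cdkn1a those of AC167363.2 on the opposite strand, so reads of these loci may have been shared.

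**Figure D2:**
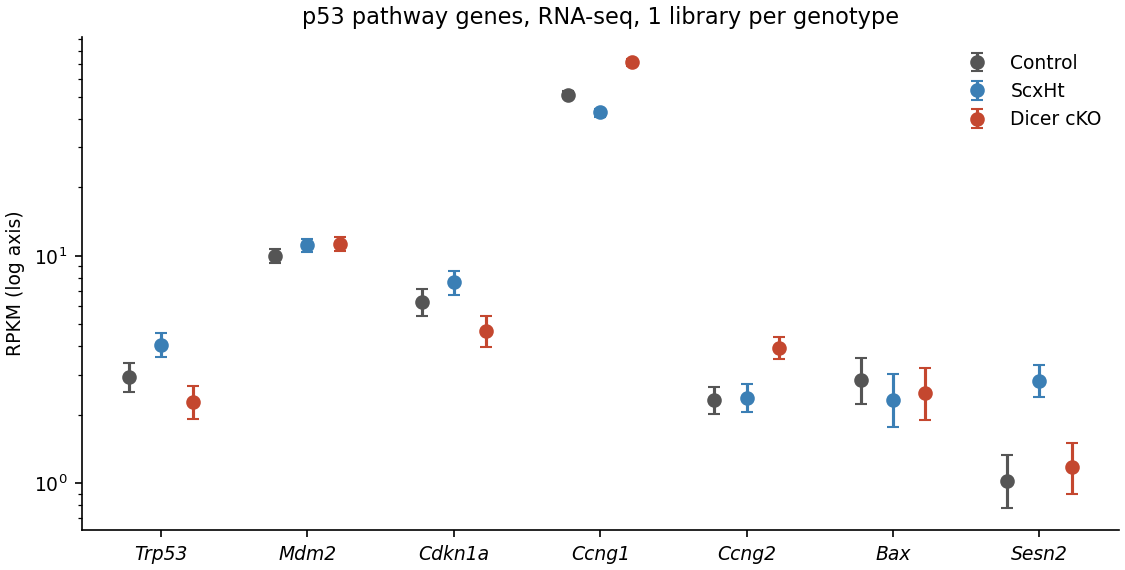
RNA-seq level of the 7 p53 pathway genes in RPKM (log axis) in the Control, ScxHt and Dicer cKO library. Points are single libraries and bars are 95% exact counting intervals. Ccng1 is highest throughout, Sesn2 stands apart in ScxHt, and Ccng2 stands apart in Dicer cKO.

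Trp53 (chr11:69580359-69591873, plus strand) had 192 reads in Control, 260 in ScxHt and 138 in Dicer cKO. ScxHt was the highest library and Dicer cKO the lowest. The ratio was 0.746 (0.595 to 0.934) in Dicer cKO/Control and 1.30 (1.07 to 1.57) in ScxHt/Control, both inside the limits with intervals that left out 1. Only Dicer cKO/ScxHt passed a limit, at 0.585 (0.472 to 0.722). A processed copy, Trp53-ps, had at most 2 reads in a library.

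Mdm2 (chr10:117688875-117710758, minus strand), the ligase that limits p53 and is induced by it, differed least of the 7. It had 826, 891 and 859 reads, with ratios of 1.08 (0.980 to 1.19) in Dicer cKO/Control, 1.03 (0.939 to 1.14) in ScxHt/Control and 1.06 (0.966 to 1.17) in Dicer cKO/ScxHt. Each interval held 1 and lay inside the limits. The balance of the feedback pair nevertheless differed between libraries. Trp53 made up 18.9% (16.5 to 21.4) of the Trp53 and Mdm2 reads in Control, 22.6% (20.2 to 25.1) in ScxHt and 13.8% (11.8 to 16.1) in Dicer cKO, where the interval lay below that of both others.

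Cdkn1a (chr17:29090976-29100727, plus strand) had 226, 268 and 155 reads in Control, ScxHt and Dicer cKO, in the same order as Trp53. Its ratios were 0.712 (0.577 to 0.878) in Dicer cKO/Control, 1.14 (0.948 to 1.36) in ScxHt/Control and 0.637 (0.520 to 0.780) in Dicer cKO/ScxHt, all inside the limits. Set against Trp53, the ratio of ratios was 1.05 (0.768 to 1.43), 1.14 (0.876 to 1.49) and 0.918 (0.682 to 1.23), so that no unequal difference of the pair was detectable at this depth. Both orders matched that of the summed macrophage markers (Adgre1, Cd68, Csf1r, Mrc1, Cd14), which was 155 CPM in Control, 285 in ScxHt and 125 in Dicer cKO. Of these 5 markers, 3 were higher in ScxHt/Control, and all 4 that were analysed in Dicer cKO/ScxHt were lower. Their part in the Trp53 and Cdkn1a values was not tested.

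The cyclin G genes went the other way. Ccng1 (chr11:40748552-40755311, minus strand), a strongly p53-induced cyclin that binds the phosphatase PP2A, had 2921 reads in Control, 2366 in ScxHt and 3729 in Dicer cKO. Its depth made the intervals narrow, with 1.33 (1.26 to 1.39) in Dicer cKO/Control, 0.776 (0.735 to 0.819) in ScxHt/Control and 1.74 (1.65 to 1.83) in Dicer cKO/ScxHt. The last was higher than the limit, but its interval reached across it. Ccng2 (chr5:93267257-93276231, plus strand), which encodes cyclin G2 and is best known as a FoxO target linked to cell cycle arrest, had 205, 204 and 321 reads. Control and ScxHt had nearly the same count and Dicer cKO stood apart, with 1.63 (1.36 to 1.95) in Dicer cKO/Control, just inside the limit, 0.953 (0.781 to 1.16) in ScxHt/Control and 1.73 (1.45 to 2.08) in Dicer cKO/ScxHt. Ccng2 is among the candidate targets of miR-135a that the study picked from these libraries, so its Dicer cKO/Control ratio is not independent evidence of direction. The Dicer cKO/ScxHt ratios of the 2 cyclins did not differ beyond counting error (ratio of ratios 0.998, 0.829 to 1.21). In Dicer cKO/Control the ratio of Ccng2 was 1.23 times (1.02 to 1.48) that of Ccng1, an interval that left out 1. The same quantity was 1.23 (0.999 to 1.51) in ScxHt/Control.

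The order of Ccng1 over the libraries was that of the summed skeletal muscle markers (Acta1, Ckm, Ttn, Myh4, Mylpf, Tnnt3), which came to 49459 CPM in Control, 27875 in ScxHt and 85771 in Dicer cKO, mostly from Ttn. Of these 6 markers, 5 were higher in Dicer cKO/ScxHt. In ScxHt/Control, Ttn and Acta1 were lower, but Myh4 was higher at 4.70 (4.59 to 4.81) and Mylpf lay at 1.12 (1.07 to 1.17), so these 2 did not share the order of Ccng1. The Dicer cKO library, where Ccng2 was highest, also had more reads of the Schwann cell markers Mbp (195 in Control, 183 in ScxHt and 1403 in Dicer cKO) and Prx (131, 97 and 550). The part of these cell types in the Ccng1 and Ccng2 values was not tested.

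Sesn2 (chr4:132492032-132510501, minus strand), a stress-induced inhibitor of mTORC1 signalling, had the largest ratio of the 7 mRNAs. It had 58 reads in Control, 155 in ScxHt and 61 in Dicer cKO, so ScxHt alone was high. ScxHt/Control was 2.56 (1.88 to 3.52) and Dicer cKO/ScxHt was 0.434 (0.317 to 0.587), each with its whole interval past the limit. Dicer cKO/Control was 1.09 (0.750 to 1.59). Its relative Sesn1, also a p53 target, had 360, 519 and 412 reads and a ScxHt/Control ratio of 1.38 (1.20 to 1.58), and Sesn3, known as a FoxO target, had 1050, 1087 and 1105 reads and a ratio of 0.992 (0.910 to 1.08).

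Bax (chr7:45461697-45466898, minus strand) had few reads, with 73 in Control, 58 in ScxHt and 59 in Dicer cKO. Ratios of 0.839 (0.585 to 1.20), 0.761 (0.530 to 1.09) and 1.12 (0.767 to 1.64) for Dicer cKO/Control, then ScxHt/Control, then Dicer cKO/ScxHt, all had intervals that held 1. Of its counterparts that block the same pathway, Bcl2 had 770, 693 and 392 reads and was lower in Dicer cKO/Control at 0.529 (0.467 to 0.598), and Bcl2l1 had 1121, 859 and 642 reads and was also lower at 0.595 (0.539 to 0.656), just past the limit. This second call was lost with TMM scaling, total counts or size factors over all 3 libraries. Mcl1, at 0.675 (0.643 to 0.708), stayed inside the limits. Bax made up 1.17% (0.919 to 1.47) of the reads of these 4 genes in Control, 1.24% (0.939 to 1.59) in ScxHt and 1.53% (1.16 to 1.96) in Dicer cKO, with overlapping intervals.

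Counted together, 0 of the 7 mRNAs passed a limit in Dicer cKO/Control, where 3.92% of 13404 genes were higher and 4.19% lower. In ScxHt/Control 1 was higher, Sesn2, against 3.04% higher and 4.71% lower of 13462 genes. Between Dicer cKO and ScxHt, 2 were higher, Ccng1 and Ccng2, and 2 lower, Trp53 and Sesn2, against 7.68% higher and 5.68% lower of 13455 genes. The median log2 ratio of the 7 was 0.11, 0.05 and 0.09 in these comparisons, and that of all genes was -0.03, 0.02 and -0.03. Ccng1 and Sesn2, both p53 targets, thus took opposite directions in Dicer cKO/ScxHt.

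**Figure D3:**
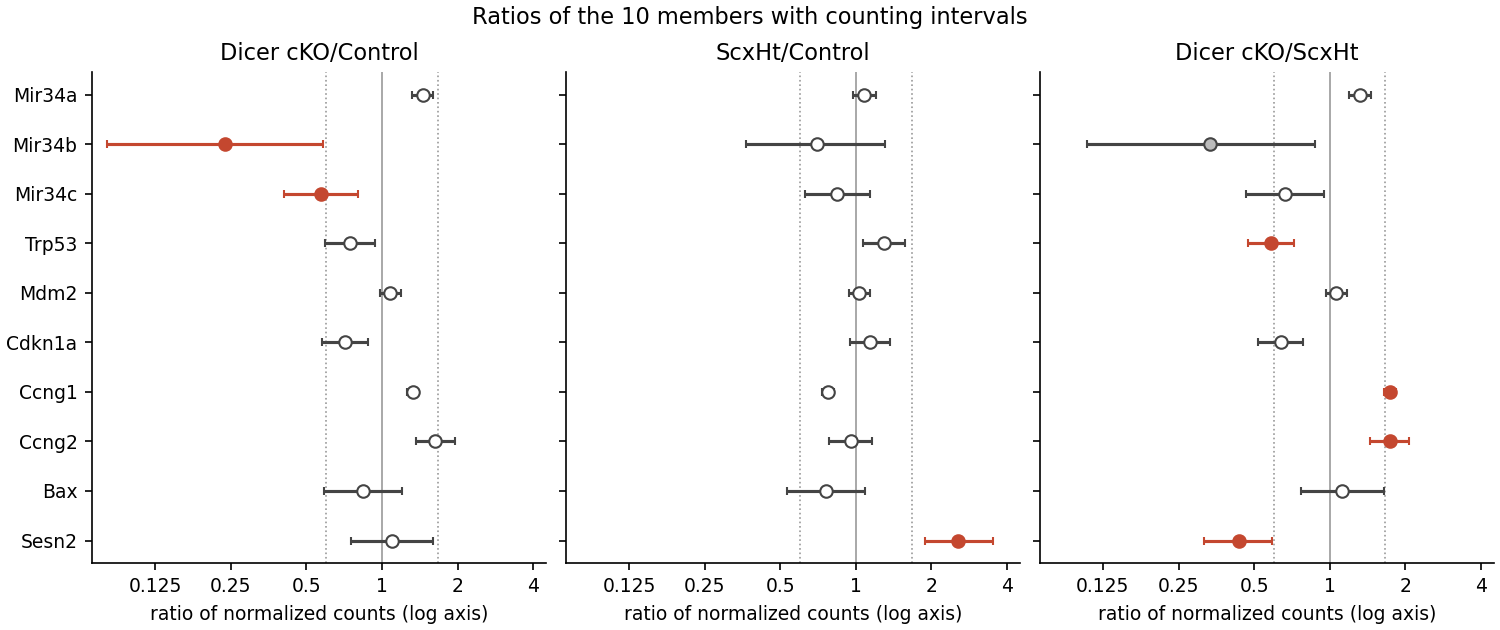
Ratio of normalized counts (log axis) of the 3 hairpins and 7 mRNAs in each comparison, with 95% exact counting intervals. Dotted lines are the limits of 0.60 and 1.67, filled red points passed one, and the grey point, Mir34b in Dicer cKO/ScxHt, was below the minimum baseMean. Mir34b and Sesn2 are the members with a whole interval past a limit.

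A further 26 known p53 targets were examined as a list. In Dicer cKO/Control, 21 were analysed, 1 was higher and 1 lower, with a median log2 ratio of -0.01. These counts are near the shares over all genes, which were 3.92% higher and 4.19% lower. The higher one was Ckap2, a spindle protein, with 45 reads in Control, 111 in ScxHt and 118 in Dicer cKO and a ratio of 2.72 (1.92 to 3.93). The lower one was Btg2, an antiproliferative immediate early gene, with 1077, 366 and 416 reads and a ratio of 0.401 (0.357 to 0.450). These 2 were past the same limits in ScxHt/Control, at 2.36 (1.66 to 3.42) and 0.326 (0.288 to 0.367), so that Control stood apart from both Scx-Cre libraries. The order of Ckap2 was that of the summed markers of dividing cells (Mki67, Top2a, Ccnb1, Cdk1, Bub1, Aurkb), at 130, 253 and 262 CPM, mostly from Mki67. Ccnb1 (35, 76 and 43 reads), Cdk1 (25, 116 and 64) and Bub1 (24, 86 and 70) were highest in ScxHt and did not share it. Of the 6 markers, 2 were analysed in Dicer cKO/Control, and both were higher. The part of these markers in the Ckap2 ratio was not tested.

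In ScxHt/Control, 22 of the 26 targets were analysed, 1 was higher and 3 lower, with a median of -0.08. Over all genes in this comparison, 3.04% were higher and 4.71% lower. The other lower genes were Eda2r, a receptor of the TNF receptor family, at 0.416 (0.345 to 0.501), and Plk2, a stress-induced kinase, at 0.587 (0.513 to 0.671). In Dicer cKO/ScxHt, 19 were analysed, 1 was higher and none lower, with a median of 0.16. The shares over all genes were 7.68% higher and 5.68% lower. The higher gene was Eda2r at 3.17 (2.65 to 3.81). With 382, 166 and 478 reads, Eda2r had the same order over the libraries as Ccng1 and the muscle sum. Several targets stayed close to 1 in every comparison, such as Zmat3, with 417, 446 and 431 reads, and Aen, with 199, 192 and 188. Pmaip1, a death-promoting protein named here after its values were seen, had 25, 27 and 2 reads, too few to be analysed, and a Dicer cKO/Control ratio of 0.0831 (0.00954 to 0.333). The other targets below the minimum in that comparison went both ways. Pidd1, with 17, 24 and 47 reads, was at 2.87 (1.62 to 5.33) and Perp at 1.56 (0.856 to 2.89). Gdf15 was at 0.0742 (0.00175 to 0.488) and Rps27l at 0.627 (0.400 to 0.97).

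Regulators and relatives of p53 were 12 genes, of which 10 were analysed in each comparison. In Dicer cKO/Control 1 was higher and 0 lower, against 3.92% higher and 4.19% lower of all genes. In ScxHt/Control 1 was higher and 0 lower, against 3.04% and 4.71% of all genes. Between Dicer cKO and ScxHt none passed a limit, against 7.68% and 5.68% of all genes. Trp63, the p53 relative of stratified epithelia, had 100, 127 and 178 reads and a Dicer cKO/Control ratio of 1.85 (1.44 to 2.39), while the keratin markers stayed at or near 0 as given above. Chek1, a checkpoint kinase, had 45, 84 and 67 reads and a ScxHt/Control ratio of 1.79 (1.23 to 2.63). Mdm4, the partner of Mdm2, had 2422, 2374 and 2165 reads and a Dicer cKO/Control ratio of 0.928 (0.876 to 0.984), and those of Atm and Atr were 0.945 and 0.983.

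The G1/S control list (18 genes) held G1/S genes together with the mitotic genes Cdk1 and Ccnb1 and inhibitors such as Rb1 and Cdkn1b. In Dicer cKO/Control, 15 were analysed and none passed a limit, against 3.92% higher and 4.19% lower of all genes. The list's median log2 ratio there was 0.12. In ScxHt/Control, 17 were analysed with a median of 0.18, and 3.04% of all genes were higher and 4.71% lower. Of the list, 3 were higher and none lower. These were Cdk1 at 4.44 (2.87 to 7.15), Ccnb1 at 2.08 (1.38 to 3.20) and Ccne2 at 1.75 (1.37 to 2.26), 2 of which also stand among the markers of dividing cells. Dicer cKO/ScxHt had 17 analysed and none past a limit, against 7.68% higher and 5.68% lower of all genes. The list's median there was 0.07. The relatives of the members (sestrins, Bcl-2 family and Ccni) were 10 genes, 9 of them analysed. Beside the shares of all genes just given, 2 were lower in Dicer cKO/Control, Bcl2 and Bcl2l1. None passed a limit in the other comparisons. Their medians were -0.19 in Dicer cKO/Control, -0.01 in ScxHt/Control and -0.19 in Dicer cKO/ScxHt.

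**Figure D4:**
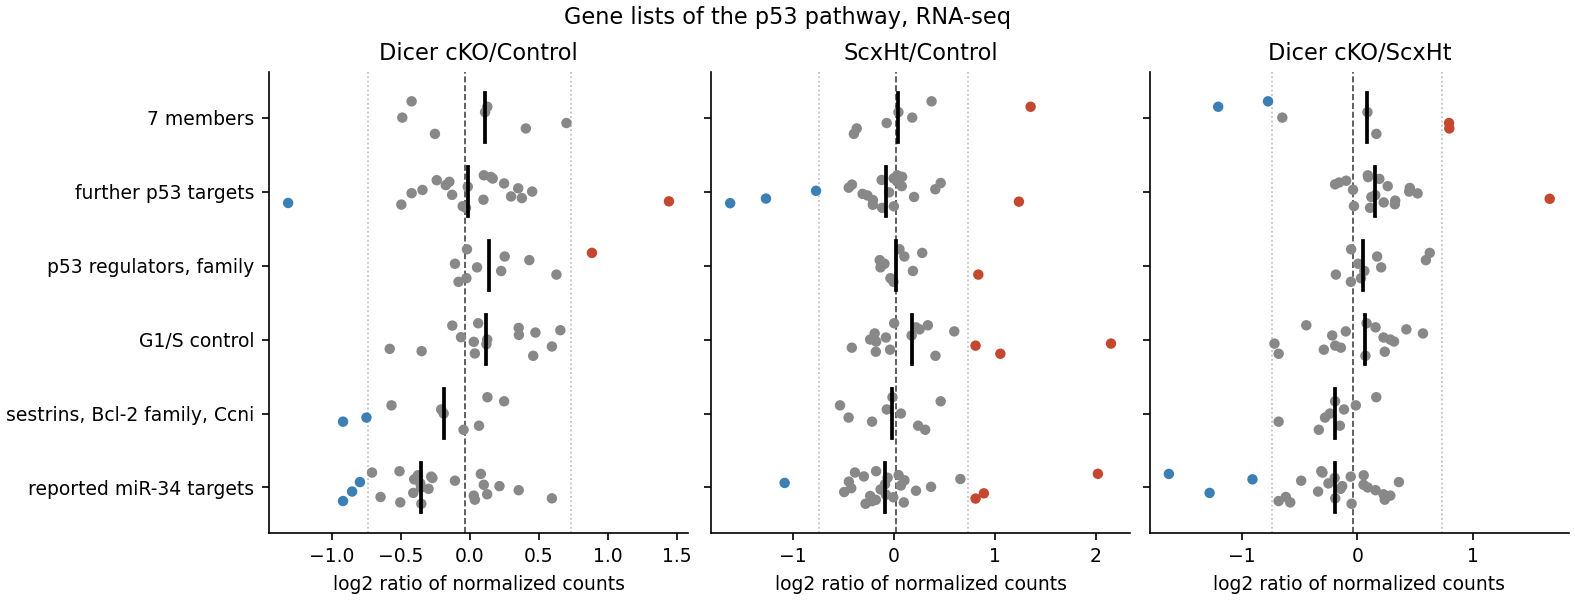
Log2 ratio of normalized counts for the 7 members and 5 related gene lists in each comparison. Points are genes above the minimum baseMean (red higher, blue lower, grey inside the dotted limits), black bars are list medians, and the dashed line is the median of all genes. The reported miR-34 targets have a median of -0.35 in Dicer cKO/Control, against -0.03 for all genes.

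Of 29 mRNAs reported elsewhere as miR-34 targets, 25 were analysed in Dicer cKO/Control. Among them 0 were higher and 3 lower, against 3.92% higher and 4.19% lower over all genes. The median log2 ratio of the 25 was -0.35, against -0.03 over all genes. The lower genes were Bcl2 (0.529, above), the Notch ligand Dll1 with 152, 113 and 81 reads and a ratio of 0.553 (0.417 to 0.729), and the transcription factor Myc with 83, 41 and 46 reads and a ratio of 0.576 (0.392 to 0.835). Cd44, a hyaluronan receptor, was inside the limits at 0.638 (0.598 to 0.681), as was the receptor kinase Axl at 0.705 (0.666 to 0.746). The tendon markers given above were lower as well, with 4 of 6 past the limit (Scx, Col1a1, Fmod, Thbs4). Their part in the list's median was not tested. Scx is itself the locus of the Cre knock-in, and its ScxHt/Control ratio was 0.623 (0.565 to 0.686). The kinases Cdk4, at 1.02 (0.863 to 1.21), and Cdk6, at 1.09 (0.927 to 1.28), and the cyclin Ccnd1, at 1.03 (0.925 to 1.14), had intervals that held 1.

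In ScxHt/Control, 26 of these targets were analysed, 3 were higher and 1 lower, with a median of -0.08. Over all genes there, 3.04% were higher and 4.71% lower. Snai1, a transcription factor of mesenchymal cells, had 29, 123 and 36 reads and a ratio of 4.06 (2.69 to 6.32). Csf1r, the macrophage growth factor receptor that is also a macrophage marker here, was at 1.86 (1.68 to 2.06), Ccne2 was at 1.75, and Myc was lower at 0.473 (0.317 to 0.696). Dicer cKO/ScxHt had 25 analysed with a median of -0.19, and 7.68% of all genes were higher and 5.68% lower. None of the targets was higher and 3 were lower. These were Snai1 at 0.323 (0.216 to 0.471), Csf1r at 0.412 (0.367 to 0.461) and Pdgfra, a receptor of fibroblasts and progenitors, at 0.533 (0.510 to 0.557).

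A 3' UTR pairs with the miR-34 seed through the letters CACTGCC, and a site is called 8mer when an A follows (CACTGCCA), 7mer-m8 without that A, and 7mer-A1 for ACTGCCA alone. Both kinds of 7mer are contained in the 8mer, so each gene was counted once, by its best site on the sense strand of its longest 3' UTR in GENCODE vM21. Of the 29 reported targets, 14 had an 8mer, 7 a 7mer-m8, 4 a 7mer-A1 and 4 none. Such targets are commonly searched for by seed site, so these counts are not independent of the sites. Among 10984 analysed genes with a 3' UTR in Dicer cKO/Control, 7.24% had an 8mer, 13.2% a 7mer-m8, 6.69% a 7mer-A1 and 72.9% none. The targets past a limit that hold an 8mer were Dll1, Snai1, Ccne2 and Csf1r. Of these, 3 are shown with the site in capitals, Dll1 at chr17:15367847-15367876, Snai1 at chr2:167542126-167542155 and Ccne2 at chr4:11203183-11203212.
Dll1 site: gaggcgcccgaCACTGCCAgcctaggcttt
Snai1 site: accctcctcctCACTGCCAggactccttcc
Ccne2 site: ctaaggagttaCACTGCCAttcttttactt
Of the targets named with an 8mer, Dll1 was lower in Dicer cKO/Control, and Snai1, Ccne2 and Csf1r were higher in ScxHt/Control. Snai1 and Csf1r were also lower in Dicer cKO/ScxHt. These genes were named because they passed a limit, and the part of the site in their values was not tested. Of the others past a limit, Bcl2 had a 7mer-A1, Pdgfra a 7mer-m8 and Myc none. Of the 7 p53 pathway members, Bax had a 7mer-m8, Ccng1 a 7mer-A1 and the other 5 none. These are letter matches only, and no site was tested.

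Over all genes, the medians of the site classes lay close together. In Dicer cKO/Control the median log2 ratio was -0.08 for 795 genes with an 8mer, -0.07 for 1447 with a 7mer-m8, -0.04 for 735 with a 7mer-A1 and -0.03 for 8007 with none. In ScxHt/Control the medians in that order were -0.04, -0.01, 0.02 and 0.04, and in Dicer cKO/ScxHt they were -0.04, -0.05, -0.05 and -0.04. UTR length was not matched between the classes.

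Features with the most similar pattern were found by the distance between their log2 ScxHt/Control and Dicer cKO/Control ratios, over 3 libraries, among 318 small RNA features and 13020 genes. Nearest to Mir34a were Mir496a and Mir505 at distances of 0.02 and 0.06. Mir34c was nearest to Mir106b (0.11) and Mir29a (0.14). Mir34b, with 29, 18 and 6 reads, had no feature within 0.2, and the nearest were Mir184 (0.92) and Mir219a-2 (0.98). These distances leave out counting error, which is wide for members with few reads such as Mir34b and Sesn2. Among mRNAs, Trp53 had 436 genes within a distance of 0.2, the nearest being Ebp and Fam149a, Ccng1 had 322, led by Svil and Chl1, and Ccng2 had 163, led by Tmem194 and RP24-465N15.1. Sesn2 had 3, of which Pappa2 (68, 202 and 73 reads) and Wwp2 (1323, 3138 and 1332 reads) were nearest.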

How the data were processed

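Total RNA of Achilles tendon gave paired-end RNA-seq and small RNA-seq libraries, 1 per genotype and assay, 6 in all. The authors trimmed adaptors, aligned reads to GRCm38 (mm10) using TopHat with Bowtie2, summed them per feature with HTSeq and deposited the raw read counts. Versions, annotation release and strand setting are not given in the sources used here, so overlapping and antisense transcripts may share counts. The RPKM per library that the authors also deposited served only to compare levels between genes.

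Exact repeats of a line were dropped (463 of 54189 in RNA-seq, 3 of 2265 in small RNA-seq). Counts were scaled by DESeq2 1.42.0 size factors (R 4.3.3) for each pair of libraries, without pseudocount, shrinkage or dispersion model. Ratios with 95% Clopper-Pearson intervals and levels with exact Poisson intervals were computed with scipy 1.17.1 (Python 3.11.15, pandas 2.3.3, numpy 2.4.6) and drawn with matplotlib 3.10.9. Depth sets the width of these intervals, which cover counting error only, since reads are not independent molecules. The minimum baseMean was 50 (RNA-seq) or 15 (small RNA-seq), and the limits were 0.60 and its inverse, 1.67. The code was tested on simulated data. With 1 library per genotype no test across samples could be fitted.

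The members and gene lists were chosen with earlier results of these data known, from general knowledge of the pathway. Named were all members, list genes past a limit (at most 5 each way per comparison), the seed relatives and the 2 most alike features. List genes without such a value are examples chosen after their values were seen. The alternatives tried were TMM scaling (edgeR 4.0.16), library totals, library totals less features above 1% of a library, size factors from all 3 libraries together, a pseudocount of 1, other limits and minimum baseMeans and, added after the data were seen, keeping the repeated lines. GENCODE vM21 (GRCm38) gave positions and 3' UTRs. It held all 10 members, 52.5% of RNA-seq features and 97.0% of small RNA-seq features by symbol. Mature microRNA sequences came from RefSeq. Values of some marker genes are not reported here.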

Additional observations from a re-analysis of the deposited data

How the results depend on the processing

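No paired analysis was possible because each genotype has 1 library per assay. Of 180 member ratios recomputed under other scalings, a pseudocount or kept repeated lines, 177 stayed inside the counting interval of the reported ratio and none past a limit changed direction. Ccng2 in ScxHt/Control, near 1, ran from 0.942 to 1.03. Total counts shifted all features by 0.18 (Dicer cKO/Control) and 0.21 (ScxHt/Control) on the log2 scale in small RNA-seq and by 0.11 in RNA-seq ScxHt/Control, and without features above 1% of a library the first shift was 0.12. With total counts, Mir34a moved to 1.65 and 1.25 in these 2 comparisons and Ccng1 to 0.834 in ScxHt/Control.

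The number of lower hairpins in Dicer cKO/Control, 2 as reported, was 1 (Mir34b) with total counts, with total counts without features above 1%, with limits of 2 and 0.5 and with the whole interval past the limit, and 0 with a baseMean above 100. In Dicer cKO/ScxHt, 0 as reported, it was 1 with limits of 1.5 and 0.67 (Mir34c) and with no minimum or a minimum of 5 (Mir34b). The p53 pathway genes had 1 higher in Dicer cKO/Control (Ccng2) with total counts or limits of 1.5 and 0.67. In ScxHt/Control they had 0 higher with a baseMean above 200. In Dicer cKO/ScxHt they had 0 higher with total counts, limits of 2 and 0.5 or the whole interval, 1 lower (Sesn2) with those limits or the whole interval, and 0 lower with a baseMean above 200. Of 108 list counts, 102 stayed within 1.5 times. With total counts, the relatives had 1 lower in Dicer cKO/Control (Bcl2, without Bcl2l1) and 1 in Dicer cKO/ScxHt. With the same scaling, the G1/S control list had 2 lower in Dicer cKO/ScxHt. The other p53-responsive microRNAs then had 1 higher in Dicer cKO/Control. TMM and size factors over all 3 libraries also gave 1 lower relative in Dicer cKO/Control, again Bcl2. Per length of the longest annotated transcript instead of RPKM, Bax and Trp53 took places 4 and 5 in Control, and Bax and Sesn2 places 5 and 7 in ScxHt.

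Higher minimum baseMeans leave fewer members to count and stricter limits call fewer. For the scalings the cause was not tested. Of the members, Mir34b had the fewest reads and the widest interval.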
